A study of Mus musculus with 8 samples.

Results

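Sperm small RNA libraries hold many short fragments that carry no small RNA label but match the mouse genome, and the values below describe that set. Its members are all listed sequences of 15 to 45 nt with no annotation and a genome match, and they make up 1883119 of the 5724730 distinct sequences in 8 libraries. The study asked whether AgRP neurons, the hunger-driving cells of the arcuate nucleus (ARH), alter the small RNA content of sperm. The 4 activated mice were Agrp Cre/+ and the 4 control mice were Agrp +/+, all males injected in the ARH as young adults and used weeks later. Both groups carried the same vector, AAV-hM3Dq-mCherry, whose activating receptor is made only in cells with Cre recombinase and is driven by a neuronal promoter, and both received its ligand CNO with food removed. Controls therefore had vector and ligand but no Cre. Sperm was collected from the caudae epididymides 4 h after CNO, washed, and sequenced as small RNA. No label states that replicates with the same number are related, and p-values measure the spread between these 8 libraries.

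Mature sperm are almost silent in transcription, and much of their RNA is a remnant of spermatogenesis or is taken up in the epididymis. Sperm small RNA includes miRNA, piRNA and fragments of ribosomal RNA and tRNA, and the pipelines that label them rely on lists of known transcripts. A fragment of a messenger RNA, or a known fragment that differs at an end, can therefore match the genome without getting a label.

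The sequences below are shown because the results turn on 2 features, a base at the end of a 28S rRNA fragment and the place of ATG in messenger RNA fragments, and the capitals mark that base or that ATG. Fragments are named with their length in nt, and with a letter where several would share a name. Those of 20 nt or more take the name of a matching gene or, without one, of the annotated RNA they extend. Shorter ones and those with neither take the name of other fragments that share a run of 15 bases, and unmatched means that no such fragment gave a name; fragments that extend 28S rRNA are named 28S at any length. The 28S end is an annotated fragment of the large ribosomal RNA and is not itself a member, while the other sequences are members. The coding fragments lie inside coding sequence in GENCODE M21 (GRCm38), Gstm5-33a at chr3:107897487-107897519 (+), Oaz3-33a at chr3:94436392-94436424 (-), Odf1-32a at chr15:38219494-38219525 (+), Dbil5-33 at chr11:76218460-76218492 (+), Pgk2-32 at chr17:40207710-40207741 (-), Prm1-37 at chr16:10796646-10796682 (-), Akap12-32 at chr10:4353627-4353658 (+) and Gpat4-32e at chr8:23175575-23175606 (-).
28S end: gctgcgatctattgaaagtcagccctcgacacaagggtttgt
28S-43a: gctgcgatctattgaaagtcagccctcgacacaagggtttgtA
28S-42a: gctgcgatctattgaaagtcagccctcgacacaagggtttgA
Gstm5-33a: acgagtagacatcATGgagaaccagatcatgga
Oaz3-33a: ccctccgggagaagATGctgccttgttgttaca
Odf1-32a: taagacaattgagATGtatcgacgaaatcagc
Dbil5-33: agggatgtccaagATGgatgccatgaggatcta
Pgk2-32: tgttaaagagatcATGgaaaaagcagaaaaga
Prm1-37: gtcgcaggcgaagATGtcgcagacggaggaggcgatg
Akap12-32: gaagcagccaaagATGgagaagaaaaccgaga
Gpat4-32e: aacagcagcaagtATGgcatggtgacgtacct

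The libraries held 9297271 to 23123740 reads, of which 416679 to 1278101 were members. Members were rarely shared: 95.5% of them were seen in 1 library only, 38.0% never had more than 1 read, and 1625 occurred in all 8 libraries. Before the comparisons, a split among the libraries has to be named. Reads under the general annotation for mitochondrial rRNA, without those labelled as 12S or 16S rRNA, took 1.89% and 1.69% of the library in activated 2 and 3 and 1.21% and 1.09% in control 1 and 3, against 0.182% and 0.145% in activated 1 and 4 and 0.167% and 0.123% in control 2 and 4. Each group thus had 2 libraries on either side, separated at 0.5%. Values within each side are given for some results below, and other results also differed between the sides. With 12S and 16S rRNA included, mitochondrial rRNA divided the libraries in the same way, at 71142 to 83464 reads-per-million in the rich libraries and 17964 to 22438 in the poor ones. Control 3, the library with fewest reads, also stood apart in several of the families described below.

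Members made up 54287, 48787, 51268 and 51136 reads-per-million of the library (RPM) in activated 1 to 4. In control 1 to 4 they made up 48626, 55272, 44817 and 42284 RPM. Control 2 was the highest library and control 4 the lowest, and the groups overlapped. The means were 51369 ± 2254 RPM for the activated group against 47750 ± 5652 RPM for controls (SD, n = 4), and a two-sided exact permutation test gave p = 0.314. The smallest p this test can give with 4 against 4 is 0.0286. The overlap rested on control 2: without it the control mean was 45243 RPM, all activated libraries lay above the other 3 controls, and the exact permutation p was 0.0286.

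Fragments of 34 to 45 nt held 48.5% of member RPM, those of 29 to 33 nt 20.6%, those of 24 to 28 nt 13.3%, those of 15 to 19 nt 9.22% and those of 20 to 23 nt 8.42%. The bands span unequal numbers of lengths, so these shares do not rank single lengths. The profile had a sharp peak at 43 nt, with 4596 ± 503 RPM for the activated group against 3514 ± 1092 RPM for controls, and a lower one at 32 nt, with 2407 ± 137 and 2158 ± 331 RPM (SD, n = 4). In the rich libraries, the 43 nt values were 4505 and 5121 RPM in activated 2 and 3 against 3520 and 2205 RPM in control 1 and 3. In the poor ones they were 3943 and 4813 RPM in activated 1 and 4 against 4877 and 3456 RPM in control 2 and 4. No band differed beyond the spread between libraries. The long band was at 26075 ± 1261 RPM for the activated group against 22247 ± 4914 RPM for controls (p = 0.229, adjusted p = 0.524 over 5 bands, two-sided exact permutation test), and the 15 to 19 nt band at 4229 ± 978 and 4820 ± 677 RPM (p = 0.314, adjusted p = 0.524, same exact test). The 3 bands under 29 nt had a lower activated mean over all 8 libraries, but their direction differed between the mitochondrial rRNA sets: for 15 to 19 nt the ratio of activated to control was 0.688 in the 4 rich libraries and 1.11 in the 4 poor ones. Of the 31 single lengths, 0 had p under 0.05 in the exact permutation test, and the lowest p was 0.114 at 43 nt (adjusted p = 0.720). Leaving out control 2 gave 11 lengths with p under 0.05 and leaving out activated 1 gave 2, and 0 passed after adjustment in either case.

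**Figure D1:**
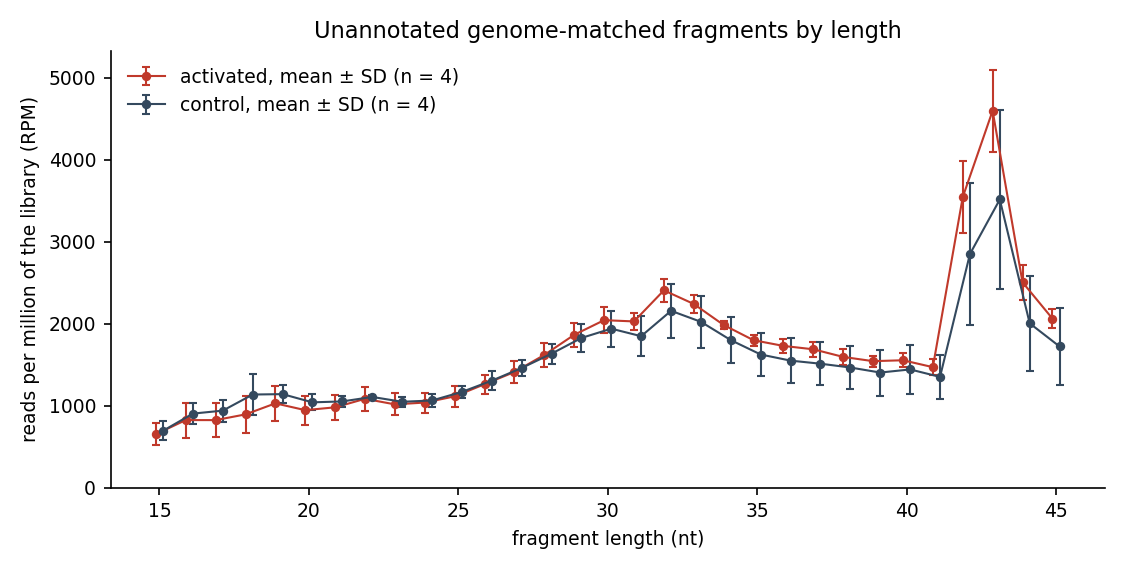
Reads-per-million of the library (RPM) in unannotated genome-matched fragments at each length from 15 to 45 nt, as mean ± SD of 4 activated and 4 control libraries. Both groups peaked at 43 nt, with a lower peak at 32 nt, and their error bars overlapped at all 31 lengths.

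The base makeup of the fragments changed with length. Guanine and cytosine made up 63.8% of bases in activated and 64.8% in control sperm at 15 nt, falling to 48.8% and 50.1% at 45 nt. Reads starting with T were 9.36% and 10.1% at 42 nt and 6.75% and 7.55% at 43 nt, where the 28S end fragments, which start with G, are most abundant. At 45 nt they were 50.3% and 43.8%.

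Between groups, the means of G and C over all libraries were lower in activated sperm at 31 of 31 lengths, by small amounts. Within the libraries poor in mitochondrial rRNA, G and C were not lower at some of the shorter lengths. At 27 nt they were 52.8% and 54.3% in activated 1 and 4, against 53.7% and 52.6% in control 2 and 4. At 45 nt they were 48.6%, 48.8%, 49.1% and 48.9% in activated 1 to 4, and 50.04%, 49.5%, 51.2% and 49.5% in control 1 to 4. All activated libraries lay below all controls there, with means of 48.8 ± 0.221% and 50.1 ± 0.826% (SD, n = 4). The groups did not overlap at 8 lengths, 34 nt and 39 to 45 nt, each with the smallest p that the two-sided exact permutation test can give, 0.0286 (adjusted p = 0.111 over 31 lengths). Without activated 1, 2, 3 or 4 in turn the groups did not overlap at 8, 8, 9 and 12 lengths, and without control 1, 2, 3 or 4 at 8, 8, 8 and 12. In the exact test 0, 0, 0 and 1 lengths then had p under 0.05 without activated 1 to 4, where groups that did not overlap could give p = 0.0571, and 8, 8, 7 and 11 had without control 1 to 4. Activated sperm were lower at 28 to 31 lengths in these settings, and counting distinct fragments gave 11 lengths with p under 0.05. Neighbouring lengths share libraries and parent RNAs, so the 8 lengths are not 8 separate results.

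T as the first base was more frequent in activated sperm at 28 of 31 lengths, the exceptions being 16, 42 and 43 nt. At 28 nt, 24.04%, 27.1%, 25.99% and 25.03% of reads began with T in activated 1 to 4, against 22.2%, 23.6%, 20.4% and 20.99% in control 1 to 4. The lowest activated library, activated 1, was just above the highest control, control 2, and the means were 25.5 ± 1.31% and 21.8 ± 1.42% (SD, n = 4). The same separation held at 27, 31, 34, 36 and 40 nt, with p = 0.0286 and adjusted p = 0.148 over 31 lengths by the two-sided exact permutation test, so 0 lengths passed after adjustment and 6 passed before it. Counting distinct fragments gave 4 lengths with p under 0.05 in the same test. Leaving out activated 1, 2 or 3 gave 3, 2 and 2 lengths with p under 0.05 and leaving out control 2 gave 10, while the groups did not overlap at 8, 6, 11 and 13 lengths in these 4 settings.

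**Figure D2:**
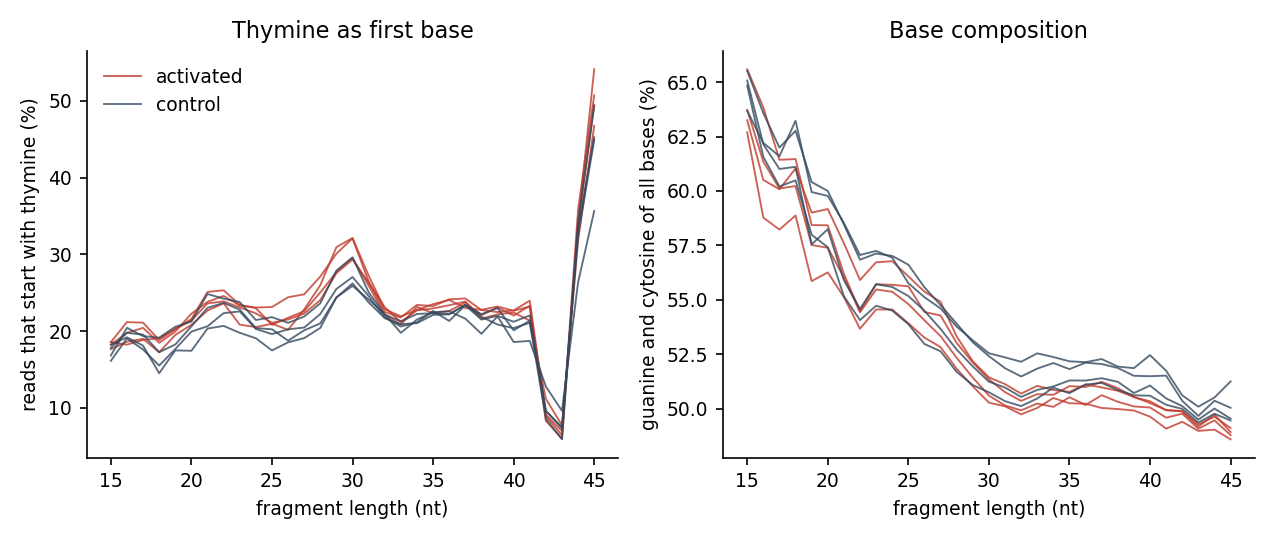
Percent of reads that start with thymine (left) and percent of guanine and cytosine among all bases (right) at each length from 15 to 45 nt, 1 line for each of the 4 activated and 4 control libraries. The activated lines lie below the control lines on the right at 34 nt and 39 to 45 nt, and the first base changes most between 41 and 45 nt.

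Against the piRNAs of the same libraries, members of piRNA length looked different at their ends. Primary piRNAs, which guide PIWI proteins against transposons in the germ line, usually begin with U, read as T in the files. Members are by definition sequences that the piRNA list did not hold, and all libraries share that list. The sets were thus separated by the annotation, and the p-values of this comparison describe only how steady its direction was between libraries. At 24 to 28 nt, 18.997% to 24.7% of member reads began with T in the 8 libraries, against 78.9% to 84.8% of reads annotated as piRNA, and members were lower in 8 of 8 libraries (p = 0.0078, the smallest an exact two-sided sign-flip test over 8 libraries can give). At 29 to 33 nt the ranges were 23.3% to 26.8% and 85.6% to 87.5%, with the same direction in 8 of 8 and the same exact p of 0.0078. Members of 29 to 33 nt were richer in G and C than piRNAs, 51.1% against 43.5% on average, and A at position 10 was less frequent, 32.7% against 35.9% (both in 8 of 8 libraries, exact sign-flip p = 0.0078). Unannotated fragments without a genome match began with T in 27.8% of reads at 24 to 28 nt, above the members in 8 of 8 libraries (exact sign-flip p = 0.0078). At 29 to 33 nt they did so in 28.9% of reads, above the members in every library but activated 3 (exact sign-flip p = 0.0234).

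Members were then sorted by parent, first as rRNA, tRNA or other non-coding RNA fragments with 1 to 3 bases more at an end, then by exact match to GENCODE M21 transcripts, and last as piRNA fragments with 1 to 3 bases more. Fragments with no parent found held a median of 41.4% of member reads, and introns, intergenic sequence and repeats were not analysed here. Sense matches to exons of protein-coding genes held 33.6% with 706270 distinct fragments, antisense matches 4.44% and exons of other genes 3.69%. The 28S rRNA fragments with 1 to 3 added 3′ bases held 13.6% with only 162 distinct fragments. Fragments that extend a piRNA and match no transcript held 2.22%, and those that extend another annotated RNA 1.15%.

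Between groups, the ratios of activated to control were 1.01 to 1.04 for sense, antisense and other-gene exon fragments and for those with no parent found. For antisense fragments and those with no parent found, the direction differed between the mitochondrial rRNA sets. With no parent found, the rich libraries had 19477 and 20325 RPM in activated 2 and 3 against 20580 and 20633 RPM in control 1 and 3. The poor ones had 24542 and 20135 RPM in activated 1 and 4 against 22491 and 17830 RPM in control 2 and 4. Protein-coding exon fragments were at 16865 ± 590 RPM for the activated group against 16302 ± 2094 RPM for controls (SD, n = 4; two-sided exact permutation p = 0.629), a ratio of 1.03 that fell to 0.999 when RPM was computed on TMM effective library sizes and to 0.986 without control 4. Extended piRNA fragments were at 1230 ± 129 and 1008 ± 107 RPM (SD, n = 4; exact permutation p = 0.0571), and the highest control, control 2, lay within the activated range. Extended fragments of other annotated RNAs were at 598, 537, 595 and 545 RPM in activated 1 to 4 and at 616, 629, 967 and 605 RPM in control 1 to 4. The activated libraries all lay below the controls, by a narrow gap apart from control 3, with a ratio of 0.808 (two-sided exact permutation p = 0.0286, not adjusted over the 7 sources). Counting only fragments of 20 to 45 nt, the groups overlapped and the exact permutation p was 0.0571.

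**Figure D3:**
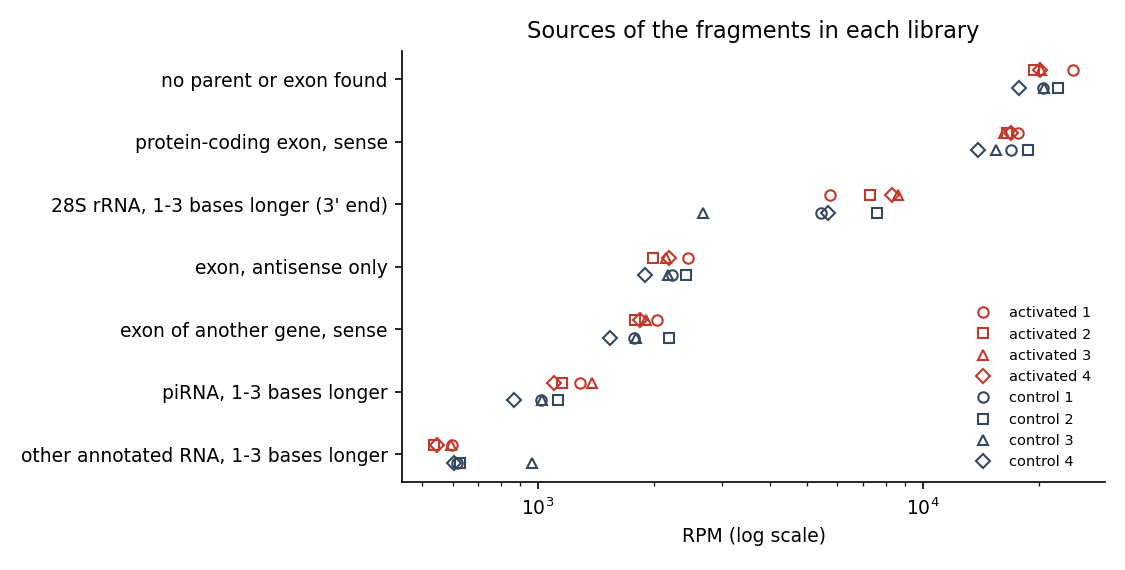
RPM on a log scale of each source of unannotated genome-matched fragments, 1 point for each of the 4 activated and 4 control libraries. The groups overlap for most sources, control 3 is lowest for extended 28S rRNA fragments at 2682 RPM and highest for extended fragments of other annotated RNAs at 967 RPM.

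The 43 nt peak came from the 3′ end of 28S rRNA, a structural RNA of the large ribosomal subunit. The 42 nt 28S end printed above, labelled as 28S rRNA, had 178465 to 1157264 reads in a library and a mean of 41996 RPM. Its form with an added A, 28S-43a, was the most abundant member, at 2267, 2810, 3265 and 3122 RPM in activated 1 to 4 and 2056, 2815, 1061 and 2237 RPM in control 1 to 4. Activated 3 was highest and control 3 lowest, and the groups overlapped.

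Relative to its parent, 28S-43a was steady, at 5.53% to 6.30% of the reads of the 28S end in the 8 libraries (median 5.796%). The same end with an added C was at 0.305% to 0.484% and was labelled 28S rRNA without a genome match, and the forms with G or T were at medians of 0.0166% and 0.0154%, also without a genome match. The form that ends in A 1 base earlier, 28S-42a, was at 98.7% to 157% of the reads of the end 1 base shorter (median 148%). Across all 28S fragments with 1 added 3′ base in the set, those with A summed to 6268 RPM, and those with C, G or T each to under 1 RPM. Forms without a genome match are outside the set, so this sum reflects what matched the genome as well as what was sequenced. No GENCODE transcript contained the 28S end, and its locus was not analysed here. Added means following an annotated fragment, not beyond the end of annotated 28S rRNA. With C in place of the A, the 43 nt form is itself labelled 28S rRNA. With T in place of the A, the 42 nt form is the 28S end. Whether the A is encoded at a genome copy or joined to the RNA was not tested.

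The sum of 28S fragments with 1 to 3 added bases was 5736, 7287, 8625 and 8341 RPM in activated 1 to 4 and 5427, 7604, 2682 and 5662 RPM in control 1 to 4. Control 3 was far below the rest and control 2 within the activated range. The ratio of activated to control was 1.40 (two-sided exact permutation p = 0.143), and 1.20 to 1.63 when a library was left out, with the lowest without control 3. It was 1.96 in the libraries rich in mitochondrial rRNA, which include control 3, and 1.06 in the poor ones. The annotated 28S end itself moved with the extended fragments, from 19195 RPM in control 3, the lowest, to 55827 RPM in activated 3, the highest. The sum of all annotated 28S fragments moved otherwise, at 112264, 143195, 157971 and 153957 RPM in activated 1 to 4 and 133525, 157654, 249983 and 107410 RPM in control 1 to 4. Control 3 was the highest library there and the lowest for the extended fragments, and the part of its rRNA content in the ratio was not tested.

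Messenger RNA fragments came from 14876 protein-coding genes, and the 20 with most reads held 15.3% of them. The leading genes were Smcp, a protein of the sperm mitochondrial capsule, at a mean of 273 RPM over 8 libraries, Oaz3, the testis antizyme of polyamine synthesis, at 160 RPM, and Akap12, a scaffold for protein kinase A, at 156 RPM. Next were Gpat4, an enzyme of glycerolipid synthesis, at 142 RPM, Odf1, a protein of the outer dense fibres of the tail, at 129 RPM, and Gstm5, a glutathione S-transferase, at 120 RPM. Prm2, a protamine of sperm chromatin, was at 54.8 RPM. These are sums over fragments and were not scaled to transcript length.

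At 32 to 33 nt, the local peak of the length profile, protein-coding exon fragments shared a feature that had no part in choosing them and was found after the data were examined. Among fragments assigned to 1 gene, the triplet ATG began at base 14 or 15 in 43.97%, 45.04%, 37.9% and 55.4% of reads in activated 1 to 4 and in 42.97%, 44.1%, 29.2% and 46.3% in control 1 to 4. Taken singly, base 14 had a median of 32.3% and base 15 one of 12.2%, while the highest value at any other position from 1 to 30 in any library was 3.497%. Both positions were picked from this profile, so the peak was not tested against the others. Activated 4 was highest and control 3 lowest, the groups overlapped, and they did not differ beyond their spread, with 45.6 ± 7.27% and 40.6 ± 7.74% (SD, n = 4; two-sided exact permutation p = 0.457).

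The peak followed the length of the fragment. At 31 nt ATG began at base 14 in a median of 17.9% of reads, at 32 nt in 42.3%, at 33 nt at bases 14 and 15 in 21.1% and 19.9%, and at 34 nt in 10.03% and 11.6%. Shorter fragments had little of it at these bases, with ATG at 14 or 15 in 2.88% at 20 to 23 nt and 3.39% at 24 to 28 nt. Fragments of 37 to 45 nt had 4.35%. At 29 nt base 11 had a median of 5.73% and base 14 one of 1.98%. At 30 nt base 12 had 4.22% and base 14 2.91%. Other sets of 32 to 33 nt in the same libraries were also low: members with no transcript match were at a median of 5.70%, antisense members at 5.32%, genome-matched piRNAs at 6.57% and unannotated fragments without a genome match at 3.64%. Each of these is a share of reads, and single abundant fragments weigh on it.

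**Figure D4:**
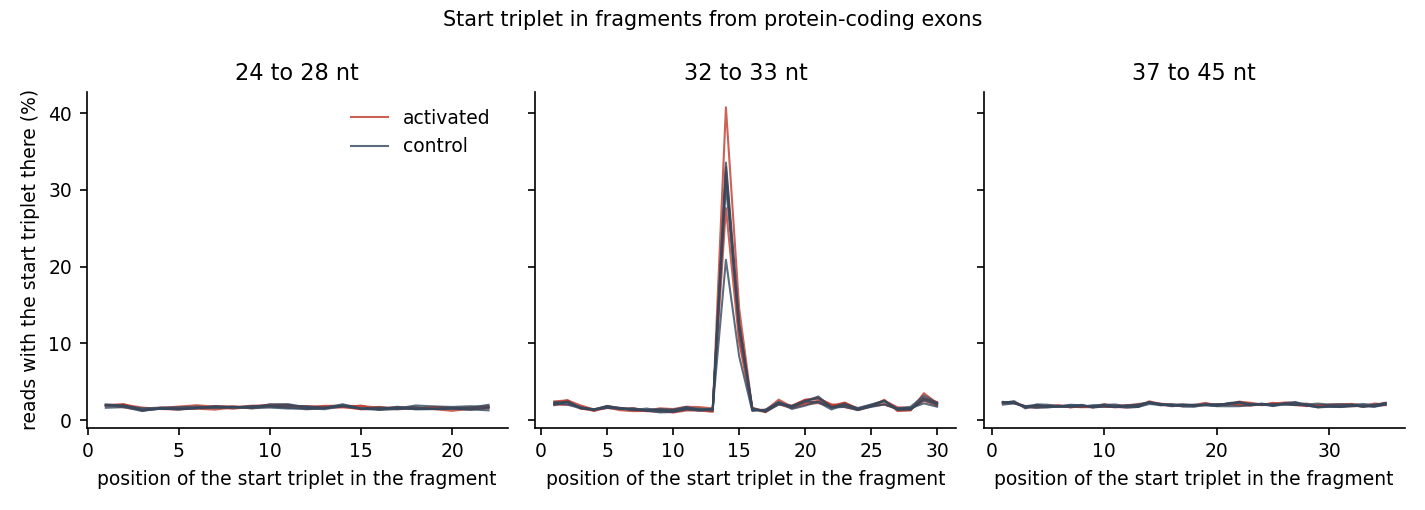
Percent of reads whose start triplet ATG begins at each position, for fragments in exons of 1 protein-coding gene in 3 length ranges, 1 line for each of the 4 activated and 4 control libraries. At 32 to 33 nt all 8 libraries peak at positions 14 and 15, a peak not visible at 24 to 28 nt or at 37 to 45 nt.

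These ATG fragments were numerous and mostly not start codons. They made up 11893 of 64423 distinct fragments of 32 to 33 nt and came from 3095 genes, though 20 genes held 51.4% of their reads. By read, a median of 8.76% had the annotated start codon at 14 or 15, against 2.46% for ATGs at other positions of the same kind of fragment. ATGs inside coding sequence and in frame were 29.8% of reads, those in frame 1 were 23.8% and those in frame 2 12.6%, against 29.7%, 37.4% and 5.45% for ATGs at other positions. A further 12.9% lay in 5′ and 11.3% in 3′ untranslated regions. By distinct fragment the shares differed, with 5.78% at the annotated start codon, 30.5% in frame, 36.03% in frame 1 and 7.89% in frame 2. The 5′ and 3′ untranslated regions then had 6.94% and 12.9%. ATGs at other positions were placed by read only, so these contrasts describe reads, on which abundant fragments weigh. The lower share in frame 1 was not seen among distinct fragments. The base after ATG was G in 59.1% of reads and 46.8% of distinct fragments, and the base 3 before it was A in 44.7% and 39.6%.

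Genes differed in how far they carried the feature. Gpat4 had 57.9 RPM, Gstm5 57.0 RPM, Smcp 62.5 RPM, Oaz3 50.7 RPM and Odf1 42.997 RPM in ATG fragments of 32 to 33 nt. By contrast Git1, Eif4g1, a scaffold of translation initiation, and Hnrnpa0, an RNA-binding protein, had totals of 117, 113 and 111 RPM but only 0.834, 0.767 and 0.110 RPM in such fragments. Among the printed fragments, the ATG is in frame in Gstm5-33a, Oaz3-33a, Dbil5-33 and Pgk2-32 and out of frame in Odf1-32a, Prm1-37, Akap12-32 and Gpat4-32e. These printed fragments lie wholly inside coding sequence, with coding bases before the ATG, so none of these ATGs could be an annotated start codon. The printed fragments therefore do not show how often such an ATG is a start codon.

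Single fragments were tested where at least 50 reads were found in at least 4 libraries. Of 12077 fragments that passed, whatever their label, 129 were members (1.07%), and they held 14.6% of member RPM. At the edge of this filter, the 25 members that passed in exactly 4 libraries had mean levels of 3.12 to 6.33 RPM, and the 39 that passed in only 3 had 2.28 to 4.61 RPM. A fragment seen only in 1 group passes through that group alone, so counts below describe the 129 and not the set. By source, 47 were protein-coding exon fragments, 17 extended 28S rRNA, 20 extended another annotated RNA, 15 extended a piRNA, 3 each were antisense or from another gene, and 24 had no parent found. Of those of 20 nt or more, 49 had 1 place in the transcripts, 5 had more and 66 had none. Fragments of 15 to 19 nt, 9 in number, were left without a place. Of 40 in exons of 1 protein-coding gene, 35 had ATG at base 14 or 15, and they came from 10 genes.

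Grouped by shared runs of 15 bases, the 129 formed 64 families, 43 of them with 1 fragment. The 28S family of 18 fragments held 88.1% of the RPM, the 45S family of 6 fragments 2.24%, the snoRNA family of 7 fragments 1.20% and the largest Smcp family, of 9 fragments, 1.08%. A median of the log2 fold change of 0.13 among the 129 stood beside 0.014 over all 12077, with 60.5% and 51.0% above 0. This lean depended on the libraries: leaving out 1 gave medians among the members of 0.032 without control 3 to 0.31 without control 4, and without activated 4 the median was -0.091 with 54 of 120 members above 0. With DESeq2 and apeglm it was 0.022.

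edgeR's quasi-likelihood test, adjusted over all 12077 fragments, called 1 member higher in activated sperm (0.505% of all tested fragments were called higher) and 0 lower (0% of all). Without adjustment, 4 members were higher and 10 lower at p under 0.05 with the same fold minimum of 1 on the log2 scale, where 2.92% and 3.34% of all fragments were. DESeq2 with apeglm called 2 members higher and 0 lower, against 1.61% and 0.373% of all fragments. The single edgeR call depended on the controls used: edgeR called 0 members without control 2, 3 or 4, where it called 0 fragments of any label, and 2 without control 1, where it called 58 of 10240 fragments of any label higher. It also called 0 members when only genome-matched fragments were tested, where the lowest adjusted p of a member was 0.507. With the replicate number as a block it called 0 members, and that lowest adjusted p was 0.122. In both cases edgeR called 0 fragments of any label (of 6761 and 12077). It called 0 without any 1 activated library and with a filter of 100 reads, but there the fragment called did not have the reads to be tested. Over all labels 0, 30, 0 and 0 fragments were called higher without activated 1 to 4, and 44 of 6396 with 100 reads.

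The member called by edgeR was unmatched-17b, a 17 nt fragment with no transcript assigned that equals an annotated piRNA fragment once 2 bases are removed from its 5′ end. It had 190, 60, 293 and 91 reads in activated 1 to 4 and 7, 3, 4 and 6 reads in control 1 to 4. All activated libraries lay far above all controls, activated 2 being the lowest of them. The log2 fold change was 4.88 (SE 0.700), with an adjusted p of 0.0330 in edgeR and 8.33e-10 in DESeq2. Without 1 control the log2 fold change was 4.55 to 5.10, and the adjusted p was 0.0990, 0.0571 and 0.107 without control 2, 3 and 4. The fragment passed the read minimum through the activated libraries alone, so it was selected by the group in which it is high, and its p-values have to be read with that limit.

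DESeq2 also called unmatched-18, an 18 nt fragment that equals an annotated piRNA fragment once 1 base is removed from its 3′ end, with 101, 117, 368 and 99 reads in activated 1 to 4 and 16, 5, 0 and 3 reads in control 1 to 4. Activated 3 was highest, control 3 had none, and the groups did not overlap. Its log2 fold change was 4.82 (SE 0.890), with an adjusted p of 0.0575 in edgeR and 5.78e-07 in DESeq2. Without 1 control the log2 fold change was 4.53 to 6.09, the highest without control 1, where edgeR called it (adjusted p = 0.0351). It too passed the read minimum through the activated libraries alone, and the same limit holds.

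Most longer reads that held either fragment did not match the mouse genome. Of 52 longer fragments that contained unmatched-17b, 50 had no genome match, and these had 1055, 327, 1775 and 395 reads in activated 1 to 4 against 26, 31, 8 and 19 in control 1 to 4. Those 50 carried 94.5% of the reads of the longer fragments, and since they hold the selected sequence they are not a separate result. All 68 longer fragments that contained unmatched-18 lacked a genome match. Another short fragment, unmatched-17a, was at 19.8, 5.77, 20.7 and 13.2 RPM in activated 1 to 4 and 3.86, 8.82, 1.94 and 3.21 RPM in control 1 to 4, with activated 2 below control 2. Its log2 fold change of 1.70 had an adjusted p of 0.572 in edgeR, and 159 of the 162 longer fragments around it had no genome match. The genome match of these 3 short fragments did not carry over to most of the longer reads. This was not so for all short members tested: for unmatched-15, unmatched-16b and unmatched-19c, 6.39%, 4.76% and 4.83% of the longer reads had no match, while for unmatched-16a, unmatched-19a and unmatched-19b 78.5%, 62.5% and 49.2% had none.

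In 15 of the 129 fragments the groups did not overlap in RPM, 7 with activated sperm higher (2.52% of all tested fragments) and 8 with it lower (1.47% of all). The 7 were unmatched-17b, unmatched-18, Lrrc8b-31, 28S-34, Dbil5-31, unmatched-35 and Prm1-37. The 8 were 3 fragments of the 45S family, 4 of the snoRNA family and piRNA-28, and overlapping fragments of a family share their source.

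The 45S family is named after the precursor that is cut into 18S, 5.8S and 28S rRNA, since 3 of its fragments extend annotated 45S fragments and the other 3, 45S-45 among them, only share 15-base runs in the family. Its 6 fragments summed to 121, 57.4, 75.6 and 70.4 RPM in activated 1 to 4 and to 185, 131, 501 and 158 RPM in control 1 to 4. The groups did not overlap, control 3 stood far above the rest, and the means were 81.0 ± 27.5 and 244 ± 173 RPM (SD, n = 4). Its most abundant fragment, 45S-45, had a log2 fold change of -1.61 (SE 0.508, edgeR adjusted p = 0.450), and 45S-40 one of -1.78 (SE 0.556, edgeR adjusted p = 0.434). Annotated 45S fragments moved with them, at 1304, 1026, 1293 and 1129 RPM in activated 1 to 4 and 1511, 1681, 4692 and 1414 RPM in control 1 to 4. Control 3 was again the highest and all activated libraries were below all controls. Without control 3 the log2 fold change of 45S-45 was -0.98 and that of 45S-40 -1.01.

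The snoRNA family, which holds extended fragments of a small nucleolar RNA, a guide of rRNA modification, summed over 7 fragments to 84.8, 50.1, 69.0 and 44.8 RPM in activated 1 to 4 and 86.5, 97.6, 159 and 105 RPM in control 1 to 4. Activated 1 came just under control 1, so the groups did not overlap, but only narrowly. snoRNA-38 had a log2 fold change of -0.94 (SE 0.390, edgeR adjusted p = 0.662) and snoRNA-36 one of -1.01 (edgeR adjusted p = 0.641). piRNA-28 was at 4.09, 1.94, 2.51 and 0.956 RPM in activated 1 to 4 and 4.51, 4.93, 6.13 and 5.65 RPM in control 1 to 4. Activated 4 was lowest and activated 1 close to the controls, and the log2 fold change was -1.21 (edgeR adjusted p = 0.656).

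The named fragments of Smcp, Gstm5 and Oaz3 had log2 fold changes of 0.12 to 1.07. Smcp-33a, at chr3:92588863-92588895 (-) in the 5′ untranslated region, was at 15.6, 23.4, 8.88 and 25.4 RPM in activated 1 to 4 and 17.95, 20.7, 10.3 and 15.1 RPM in control 1 to 4. Activated 3 and control 3 were the lowest of their groups, and the groups overlapped, with a log2 fold change of 0.13 (edgeR adjusted p = 0.999). Gstm5-33a was at 15.7, 18.2, 8.47 and 29.97 RPM in activated 1 to 4 and 17.9, 17.3, 9.79 and 18.96 RPM in control 1 to 4, a log2 fold change of 0.12. Its direction changed when activated 4 was left out (-0.31), as did that of Smcp-33a (-0.13). Gstm5-33b, at chr3:107896635-107896667 (+), and Oaz3-33b, at chr3:94433544-94433576 (-), had log2 fold changes of 0.52 and 0.37, and Oaz3-33c, at chr3:94434492-94434524 (-), 1.07 (edgeR adjusted p = 0.795), or 0.80 to 1.63 when a library was left out.

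The remaining named fragments spanned log2 fold changes of -1.17 for unmatched-45 to 1.04 for unmatched-36b. Fragments of small nuclear RNA (snRNA-42, -0.15), of Rmrp, the RNA of the RNase MRP enzyme (Rmrp-38 at chr4:43493022-43493059 (-), -0.28), and of the strand opposite mt-Tp, the mitochondrial proline tRNA gene (mt-Tp antisense-37 at chrM:15356-15392, 0.26), changed direction when 1 library was left out. A fragment that matched several genes, several genes-38, was at -0.91, piRNA-34a at -0.96, piRNA-26 at -0.83 and 28S-34 at 0.74. None of these had an edgeR adjusted p under 0.05.

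**Figure D5:**
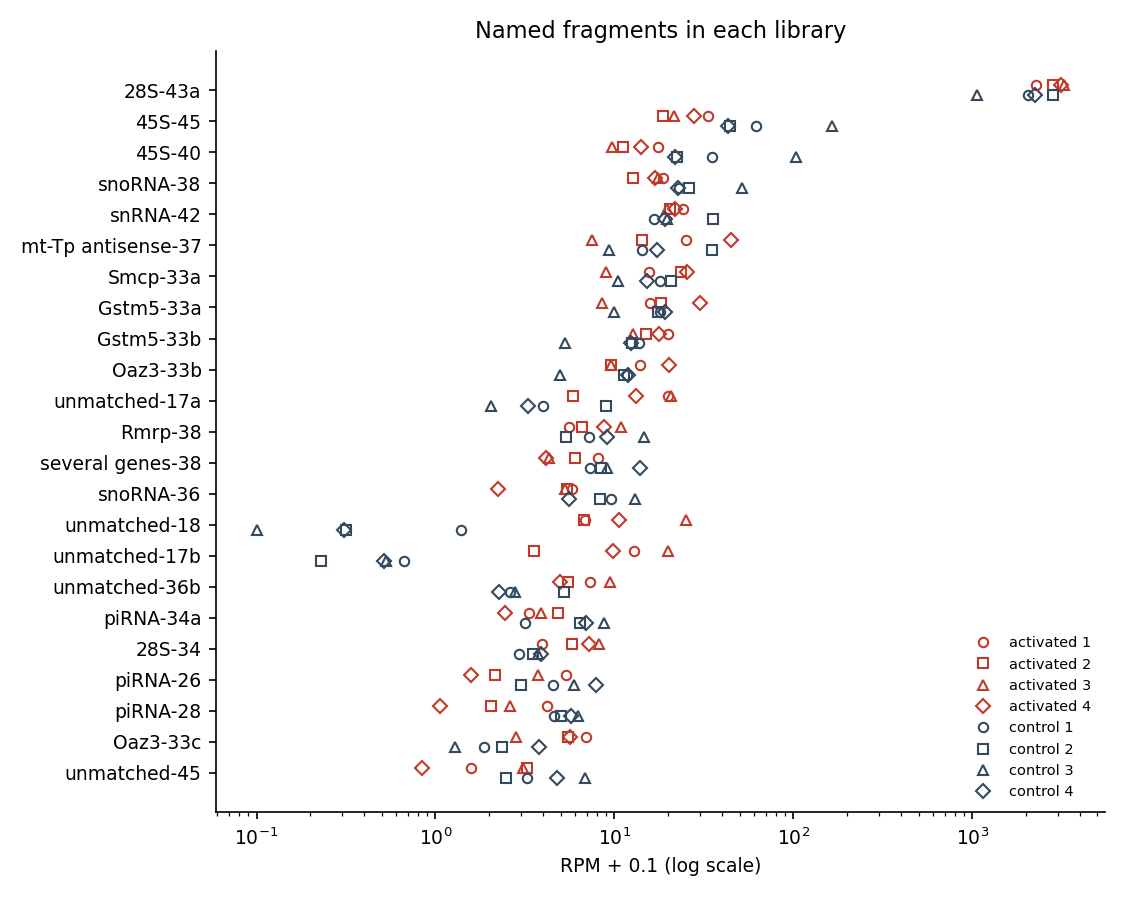
RPM plus 0.1 on a log scale for 23 named fragments, 1 point for each of the 4 activated and 4 control libraries. Only unmatched-17b and unmatched-18 show a wide gap between groups, and control 3 lies far to the right for 45S-45 and 45S-40.

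Markers of sperm and of other cells were read in the same libraries, miRNAs from labelled reads and messenger RNAs from members. In bulk RNA, fewer cells of a type and less RNA per cell cannot be told apart. All 9 sperm and testis messenger RNAs were present, summing to 510, 608, 460 and 648 RPM in activated 1 to 4 and 615, 633, 437 and 457 RPM in control 1 to 4, with Smcp the most abundant. The groups overlapped. The matched sperm miRNAs, 2 of 3 listed, summed to 383 to 2360 RPM.

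Epithelial markers varied widely between libraries. The 6 epithelial miRNAs, of which miR-200c-3p and miR-141-3p had most reads, summed to 3344, 1118, 1038 and 1152 RPM in activated 1 to 4 and 1302, 1754, 2613 and 18528 RPM in control 1 to 4. Control 4 was far above all others, and activated 1 was the highest of its group. The 4 epithelial messenger RNAs, led by Crisp1 of the epididymis, summed to 6.24, 2.69, 2.71 and 2.34 RPM in activated 1 to 4 and 2.33, 4.07, 13.7 and 8.43 RPM in control 1 to 4. Control 3, the library high in 45S fragments, was the highest. Crisp1 made up most of each sum: Lcn5 was seen in control 1 alone and Lcn8 in activated 2 alone. Their part in the group differences above was not tested.

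Erythrocyte miRNAs, 2 of 4 matched and miR-451a the most abundant, summed to 196, 47.2, 63.9 and 57.7 RPM in activated 1 to 4 and 124, 376, 551 and 268 RPM in control 1 to 4. Activated 1 lay among the controls, and the globin genes Hba-a1, Hbb-bs and Hbb-bt were at 0 in all 8 libraries. Only fragments assigned to 1 gene were counted, so fragments shared between globin genes would be missed. The value of 0 therefore does not show that globin RNA was absent. Leukocyte miRNAs, 3 of 4 matched, summed to 27.5 to 141 RPM, while Ptprc and Lyz2 together had 0 to 0.850 RPM. The smooth muscle genes Acta2 and Myh11 summed to 0.343 to 2.51 RPM, and Kit, a marker of germ stem cells, to 0 to 0.134 RPM. Also listed were miR-34c-5p, miR-486a-5p, miR-486b-5p, miR-150-5p, miR-143-3p and miR-145a-5p, but no value was read for them. Their names had no mature sequence in the reference used, so they were not measured, which is not absence. The smooth muscle values therefore rest on messenger RNAs alone.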

How the data were processed

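Sperm small RNA of 8 mice was analysed from the tables of sequences the authors deposited, in which each row gives a sequence, its length, its reads, whether it matched the genome and its annotation. The deposited values are raw counts of reads, and the summary tables hold the authors' counts and estimated counts per class. The authors annotated reads with SPORTS and Bowtie on mm10 and on lists of miRNA, rRNA, tRNA, piRNA and other non-coding RNA, with no mismatch allowed and duplicate reads kept. The version of Bowtie is not given in the sources used here.

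RPM was computed on all reads of a library. Shares, bands and sources were compared with two-sided exact permutation tests over 70 assignments of libraries, adjusted by Benjamini-Hochberg where stated. Fragments with at least 50 reads in at least 4 libraries were tested with edgeR 4.0.16 (quasi-likelihood, TMM) and with DESeq2 1.42.0 and apeglm 1.24.0 in R 4.3.3, and called at an adjusted p under 0.05 with an absolute log2 fold change over 1. limma 3.58.1, Python 3.11.15, numpy 2.4.6, pandas 2.3.3, scipy 1.17.1, numba 0.67.0 and matplotlib 3.10.9 were also used, and both count tests were run first on simulated counts in which 200 fragments had a known change.

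A parent was assigned when removing 1 to 3 bases from an end gave an annotated fragment other than piRNA, otherwise by exact match to GENCODE M21 transcripts, and last when that removal gave a piRNA fragment. Named fragments were the most abundant of each of the 12 families with highest RPM, the 6 with the smallest edgeR p in each direction, at most 1 per family, and all called by either tool. Fragments printed as sequences were chosen after their values were seen. miRNA markers were matched on 18 bases of the mature sequence from RefSeq. Members and lists were chosen with earlier results of these data known. Alternatives covered the denominator, filter, tool, covariate, pairing and leaving out each library.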

Additional observations from a re-analysis of the deposited data

Results flagged for a closer look

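In groups of 4 libraries, a library was looked at again where its gap to the nearest other library was above Dixon's critical share of the group's whole range. This held in 20 of 116 groups of values, where chance gives about 1 in 20, or 5.8 groups. That rate assumes separate groups, but families, their fragments, bands and sources share reads, so an excess was not tested. Control 3 was the distant library in 9 of them, activated 1 in 6 and control 4 in 2.

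Control 3 was far above the other controls for extended fragments of other annotated RNAs (967 RPM against 605 to 629, a gap of 0.934 of the range), for the 45S family (501 RPM, 0.854), and for 45S-45 (164 RPM, 0.849), 45S-40 (104 RPM, 0.837) and snoRNA-38 (51.5 RPM, 0.884). It was far below them for the Oaz3 family of 4 fragments (10.3 RPM, 0.830), the Gstm5 family of 2 fragments (6.35 RPM, 0.856) and Oaz3-33b (4.84 RPM, 0.923). Its leukocyte messenger RNAs, Ptprc and Lyz2, were at 0.430 RPM (0.838). What sets control 3 apart was not tested.

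Activated 1 was highest in its group for 15 to 19 nt fragments (5681 RPM, 0.837), fragments with no parent found (24542 RPM, 0.833), erythrocyte miRNAs (196 RPM, 0.888), epithelial miRNAs (3344 RPM, 0.950), epithelial messenger RNAs (6.24 RPM, 0.905) and Kit (0.134 RPM, a gap of 1). Control 4 was highest among controls for epithelial miRNAs (18528 RPM, 0.924) and Kit (0.0697 RPM, a gap of 1). For Kit the other 3 libraries of each group were at 0.

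Single cases were control 2, highest for snRNA-42 (35.5 RPM, 0.848), activated 4, lowest for snoRNA-36 (2.13 RPM, 0.864), and control 1, highest among controls for unmatched-18 (1.29 RPM, 0.832).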

How the results depend on the processing

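Over 38 results and 514 values under an alternative, 475 kept their direction and their side of the threshold, or stayed within the spread between libraries. Of 306 fold changes of named fragments, 300 kept their direction, and the 6 others belonged to 5 fragments. The cause of the changes below was not tested.

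In the libraries rich in mitochondrial rRNA, activated to control ratios were 0.688 at 15 to 19 nt, 0.813 at 20 to 23 nt and 0.876 at 24 to 28 nt, and in the poor libraries they were 1.11, 1.09 and 1.08. With TMM effective library sizes, chosen for protein-coding exon fragments after seeing the data, their ratio was 0.999. edgeR called 5 of 954 members higher with a filter of 10 reads (202 of 56991 fragments of any label), 15 of 13138 higher and 3 lower with 1 read (1743 and 1057 of 387985), 0 with 100 reads (44 of 6396), where unmatched-17b was not tested, 0 when only genome-matched fragments were tested (0 of 6761), and 2 higher with the mitochondrial rRNA set as a covariate (100 higher and 7 lower of 12077). DESeq2 called 2 higher (195 higher and 45 lower of 12077). At single lengths, 0 tests of RPM, first base or G and C passed after adjustment in any setting, and the mitochondrial rRNA sets gave no test there.

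Leaving out a library gave ratios of 1.04 to 1.14 for total RPM, with the highest without control 2, where the exact permutation p went from 0.314 to 0.0286, and 0.986 (without control 4) to 1.09 for protein-coding exon fragments. Members called higher numbered 0 to 2, and fragments of any label 0 to 58, with 0 in 6 of the 8 settings. Log2 fold changes ranged from -0.29 to 0.15 for snRNA-42, -0.34 to 0.72 for mt-Tp antisense-37, -0.13 to 0.42 for Smcp-33a, -0.31 to 0.39 for Gstm5-33a (-0.041 without control 3) and -0.46 to 0.073 for Rmrp-38.

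With the replicate number as a block, edgeR called 0 members and 0 of 12077 fragments of any label, and the log2 fold change of unmatched-17b was 4.72 (adjusted p = 0.122). Over the other scaling, covariate and leave-one-out settings in edgeR its adjusted p ran from 0.0190 to 0.107, and leaving out an activated library took it below the read minimum for a test. When only genome-matched fragments were tested, the lowest edgeR adjusted p of any member was 0.507. Same-numbered libraries correlated at -0.63, -0.55, 0.59 and 0.51 over 12077 fragments and at -0.28, 0.19, 0.38 and 0.25 over the 129 members, and numbers 1 and 2 join a library rich in mitochondrial rRNA with a poor one while 3 and 4 join libraries of the same kind, so these correlations do not decide whether the numbers pair the libraries. Most members had too few reads for a test.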
